A study of Drosophila melanogaster with 3 samples.

Results

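The ecdysone receptor and the early response genes described here are 10 of the 13945 protein-coding genes annotated on the major chromosome arms of Drosophila melanogaster: EcR, usp, Eip74EF, Eip75B, Eip78C, Eip93F, br, ftz-f1, Hr3 and Hr4. They were chosen by name, with earlier results of these data known. A summit was assigned to a gene when it lay in the annotated span or within 5 kb of it. ChIP-seq profiled where the zinc-finger protein encoded by salr (spalt-related) binds in prepupae, taken whole and with males and females pooled. The only group, salr-GFP, is 1 transgenic line that stably carries salr tagged with GFP at its C-terminus. Chromatin was sonicated to 200 to 800 bp, precipitated with an anti-GFP antibody and analysed in 3 biological replicates with a shared control alignment. The exact age is recorded as unknown, no other condition is compared, and whole animals mix all tissues, so a peak cannot be placed in a tissue.

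The steroid 20-hydroxyecdysone drives the moults and metamorphosis of the fly. It binds a heterodimer of EcR and Usp, both nuclear receptors, which switches on a small set of early genes, among them br, Eip74EF and Eip75B, whose products control later waves of transcription. Around puparium formation Hr3 and Hr4 help to repress early genes and to induce ftz-f1, the nuclear receptor that gives prepupal tissues competence to respond to the next hormone pulse, in which Eip93F directs the death of larval tissues. Most of these genes are long and have several promoters, which respond differently to the hormone.

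In the list of 6485 peaks that passed the authors' IDR step, a filter on rank agreement between replicates, all 10 genes had at least 1 summit. So did 38.8% of all protein-coding genes and 68.9% of those over 20 kb. Together the 10 genes held 92 summits. Most lay in introns (79.3%, against 72.2% around genes over 20 kb), far from any start site of the gene. Of 35 alternative promoters, 4 had a summit within 500 bp, namely RC of Eip75B, both promoters of Eip93F, and RA of usp. The letters are the suffixes of the annotated transcripts that start there. Of all promoters 11.4% were so marked, and 16.0% in genes over 20 kb. The marks at RA of usp and at the distal Eip93F promoter, RB, were lost when any replicate was left out. The strongest summits belonged to Eip74EF, Eip75B and Hr4.

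The sequences below carry these results: 3 of the 4 marked promoters, and the strongest summits of Eip74EF and Hr4. They are read from the RefSeq Release 6 genome, which is the dm6 build of the peak lists, and written 5′ to 3′ on the strand of the gene. Each was cut from the 201 bp centred on the summit, without annotated exons. This leaves 201 bp at the Eip93F RB promoter and at the Eip74EF and Hr4 summits, and 163 bp at the Eip93F RA and RC promoter. At the Eip75B RC promoter, whose summit lies inside the exon and outside the printed stretch, it leaves the 71 bp directly upstream of the start. Capitals mark GAGAG or its complement CTCTC, the word bound by GAGA factor.
Eip75B RC promoter, chr3L:17999822-17999892, minus strand: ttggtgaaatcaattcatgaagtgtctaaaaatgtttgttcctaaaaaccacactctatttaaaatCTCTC
Eip93F RA and RC promoter, chr3R:21972216-21972378, plus strand: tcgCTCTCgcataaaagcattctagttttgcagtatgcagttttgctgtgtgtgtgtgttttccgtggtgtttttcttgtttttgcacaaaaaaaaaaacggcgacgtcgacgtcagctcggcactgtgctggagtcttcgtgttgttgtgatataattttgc
Eip93F RB promoter, chr3R:21948797-21948997, plus strand: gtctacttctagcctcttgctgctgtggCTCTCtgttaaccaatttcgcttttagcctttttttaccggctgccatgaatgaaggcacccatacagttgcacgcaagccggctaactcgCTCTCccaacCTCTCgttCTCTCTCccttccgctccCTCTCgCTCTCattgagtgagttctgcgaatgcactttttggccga
Eip74EF strongest summit, chr3L:17611275-17611475, minus strand: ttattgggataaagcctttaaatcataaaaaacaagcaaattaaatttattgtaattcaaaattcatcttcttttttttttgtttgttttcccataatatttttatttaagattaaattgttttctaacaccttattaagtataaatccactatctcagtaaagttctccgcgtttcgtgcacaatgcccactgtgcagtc
Hr4 strongest summit, chrX:1951816-1952016, plus strand: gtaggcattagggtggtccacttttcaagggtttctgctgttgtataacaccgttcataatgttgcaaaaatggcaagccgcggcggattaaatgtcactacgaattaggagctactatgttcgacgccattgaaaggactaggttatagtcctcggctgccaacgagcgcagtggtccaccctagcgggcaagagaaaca
The Eip93F RB window held 7 copies of CTCTC, overlapping copies counted, and the Eip74EF and Hr4 windows of the same length held none. The shorter promoter stretches shown held 1 each and are not compared with these. The marked promoter not shown, RA of usp, left a stretch of 56 bp that held none. The 201 bp at the strongest ftz-f1 summit, in an intron and not shown, held 1 copy of GAGAG. The sequences shown are thus no comparison of promoters with introns. The Eip74EF window was AT-rich, with a GC content of 27.4%, against 48.8% at Hr4.

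The half-site AGGTCA, which many nuclear receptors bind, lay within 100 bp of 7 of the 92 summits. These were 4 summits of Eip74EF, 2 of Eip75B and 1 of ftz-f1. All 7 are shown because the genes themselves encode or answer to nuclear receptors. Capitals mark the half-site, with 15 bases to either side, on the strand that reads AGGTCA.
Eip74EF, chr3L:17587144-17587179, minus strand: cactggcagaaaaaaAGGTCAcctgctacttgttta
Eip74EF, chr3L:17578449-17578484, minus strand: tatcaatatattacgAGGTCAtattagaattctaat
Eip74EF, chr3L:17567088-17567123, minus strand: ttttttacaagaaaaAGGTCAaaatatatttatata
Eip74EF, chr3L:17563909-17563944, minus strand: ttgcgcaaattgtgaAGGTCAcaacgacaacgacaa
Eip75B, chr3L:18063289-18063324, minus strand: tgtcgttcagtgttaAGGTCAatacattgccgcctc
Eip75B, chr3L:17978747-17978782, plus strand: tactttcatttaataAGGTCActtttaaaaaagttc
ftz-f1, chr3L:18759355-18759390, plus strand: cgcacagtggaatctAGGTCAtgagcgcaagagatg
The site beside the Eip74EF summit at signal value 704 lay 75 bp from it, and that of Eip75B at 325 lay 9 bp from its summit. A signal value is the score deposited for each peak, with no stated scale, and is used here to rank peaks within a list.

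The share of the 92 windows with AGGTCA was 7.61% (Wilson 95% interval 3.73 to 14.9%), against 3.69% of all IDR windows of the same 201 bp. The interval covers counting error only, and its lower end lies beside the share of all peaks. It treats the 92 windows as independent, although 4 of the 7 with the half-site belong to Eip74EF. Windows centred 1000 bp to either side of the members' summits held the half-site in 5.98%, a value inside that interval. Those beside all IDR summits held it in 4.94%, above the 3.69% at the summits. GAGAG or CTCTC was found in 26.1% of the members' windows (18.2 to 35.9%), against 23.2% of all IDR windows and 29.3% beside the members' summits. Counted by gene, ftz-f1 and EcR each had the word at 5 summits, Eip74EF at 4 and Hr4 at 3. AATATT, the word bound by the mouse relative SALL4, occurred in 27.2% (19.1 to 37.0%), against 29.6% of all IDR windows. Beside the summits it was found in 19.0% for the members and 18.2% for all peaks. No window held CAAGGTCA, the extended half-site bound by ftz-f1, or CCGGAAGT, a site for ETS factors such as Eip74EF. For 0 of 92 windows the interval ends at 4.01%, and 0.247% and 0.200% of all IDR windows had these words. All searches read both strands and exact letters, and a match does not show that a factor binds there.

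The 92 summits divided into 79 inside the gene spans and 13 in the flanks. A summit in the span or within 5 kb was found for 38.8% of all protein-coding genes, and for 68.9% of the 1013 genes with a span over 20 kb. All of the 10 genes but usp belong to this long class. Of the genes with a span of 20 kb or less, the class of usp, 36.5% had a summit. Among the 6485 best-ranked peaks of replicates 1, 2 and 3 instead, 9, 10 and 9 genes had one (9.33 ± 0.577, SD, n = 3) and usp was the gene without one in replicates 1 and 3. The replicates held 88, 78 and 91 summits (85.7 ± 6.81, SD, n = 3), so the total did not depend on a single library. Keeping only IDR peaks with a best-ranked summit within 100 bp in both other replicates left 57, 58 and 59 summits without replicates 1, 2 and 3, or 62.0, 63.0 and 64.1%. Of all IDR peaks, 62.4, 63.3 and 67.2% were left by the same rule.

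Inside their spans the 10 genes had 1.31 summits per 10 kb. All protein-coding genes had 0.463, genes over 20 kb had 0.508 and the chromosome arms 0.484. In replicates 1, 2 and 3 the genes had 1.22, 1.08 and 1.26 summits per 10 kb (1.19 ± 0.0970, SD, n = 3), and genes over 20 kb had 0.511, 0.471 and 0.488 (0.490 ± 0.0203, SD, n = 3). The members lay above the long genes in every replicate, with ratios of 2.40, 2.29 and 2.58 and of 2.57 in the IDR list. With 1 group, and members chosen by name with earlier results of these data known, this difference has no test. Neighbouring IDR summits of the members within 300 bp of each other were 200 to 229 bp apart and numbered 28 of 92 (30.4%, against 26.1% of all IDR summits). With these counted once, a choice made after seeing the data, 78 summits were left and 1.13 per 10 kb. By the same rule 5634 of all 6485 IDR summits were left. The density of genes over 20 kb is not given for it. Without replicates 1, 2 and 3, when the whole list shrinks, the density was 0.778, 0.794 and 0.811 for the members and 0.308, 0.318 and 0.338 for genes over 20 kb, with ratios of 2.53, 2.50 and 2.40.

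The genes differed widely among themselves. Hr3 had 2.40 summits per 10 kb, Eip74EF 2.14, Hr4 1.82, ftz-f1 1.78 and Eip78C 1.504. Eip75B, EcR and Eip93F had 1.14, 1.11 and 0.917. The value for usp, 2.85, comes from 1 summit in 3.51 kb. The gene br stood lowest at 0.223, and 53.4% of the long genes were denser than br, against 4.44% that were denser than Hr3.

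**Figure D1:**
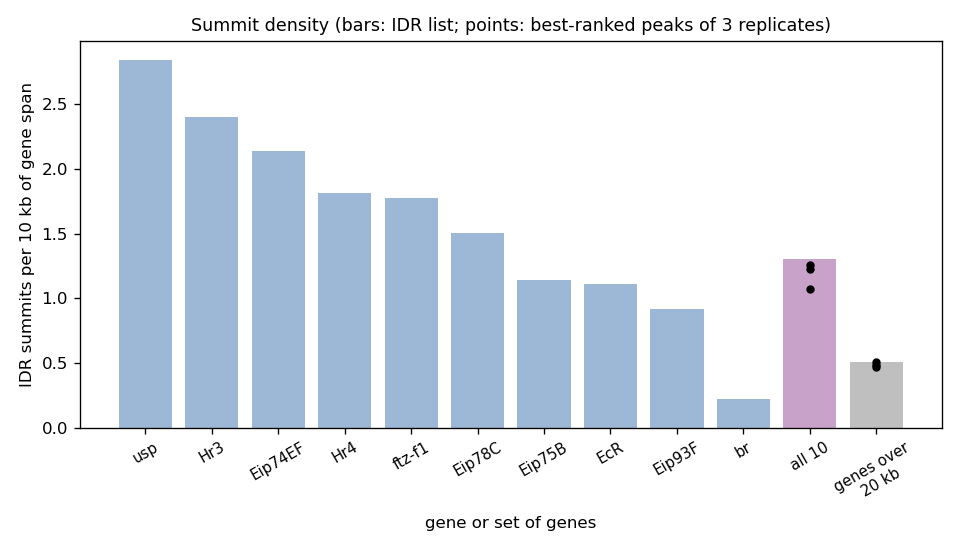
Summits per 10 kb of gene span for each gene, for all 10 together and for the protein-coding genes over 20 kb. Bars show the IDR list. Points show the best-ranked peaks of each of the 3 replicates, and are drawn only for the 10 genes together and for the long genes. The genes together stand at 1.31, the long genes at 0.508 and br at 0.223.

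**Figure D2:**
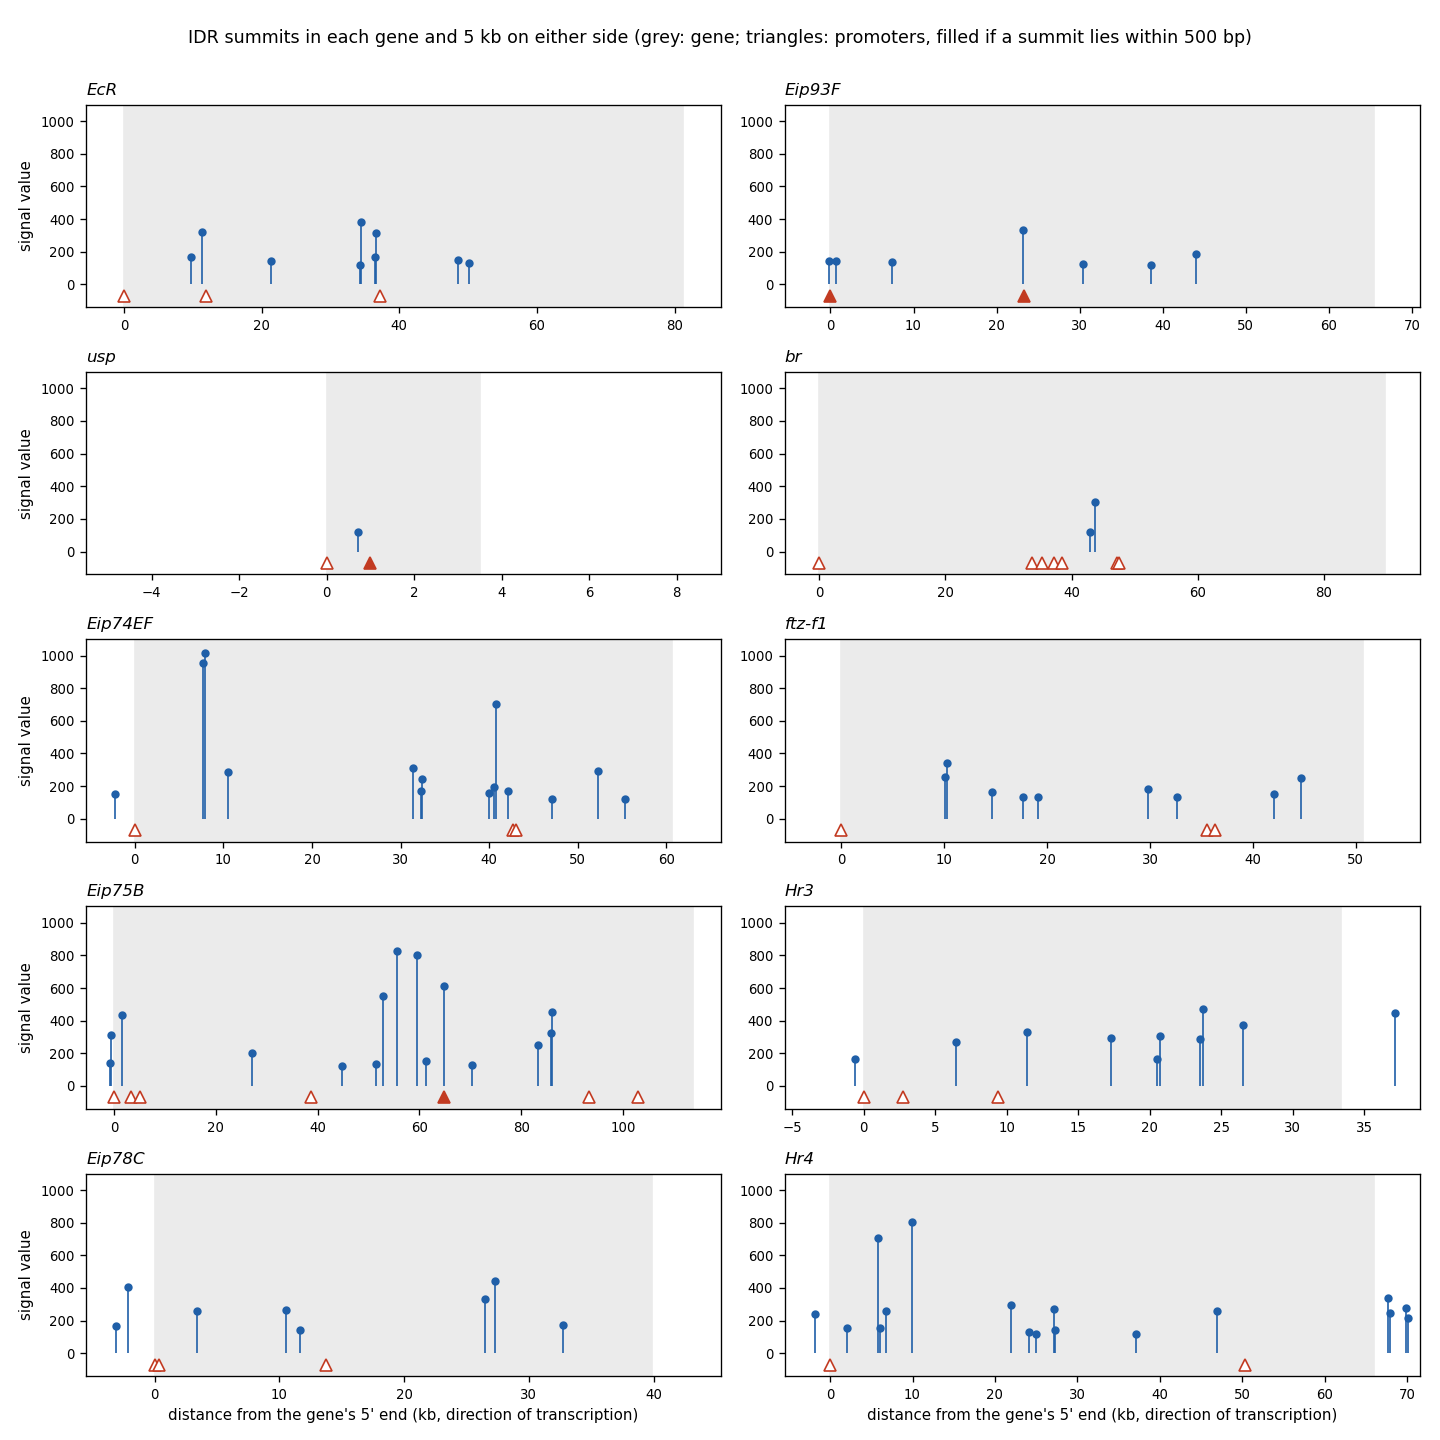
Position and signal value of every IDR summit, per gene, by distance in kb from the 5′ end in the direction of transcription. Grey marks the annotated span and triangles the promoters, filled where a summit lies within 500 bp. The tallest summits of Eip74EF, Eip75B and Hr4 stand inside the genes, away from the filled triangles.

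The receptor genes came first in the pathway but not in signal. EcR (FBgn0000546, chr2R:6087873-6169087, minus strand), which encodes the hormone-binding subunit of the receptor, had 9 summits, all inside the gene. Its strongest had a signal value of 382 (rank 1014) and lay in an intron 2733 bp upstream of the proximal promoter. The best summit of EcR in each list reached 165, 135 and 99.2 in replicates 1, 2 and 3, at ranks 1157, 782 and 885. In replicate 1 this was the peak upstream of RD and RE, and the summit of 382 had 158 there, at rank 1243. Scales of the replicate lists differ, with highest values of 942, 649 and 537, so ranks are the values to compare. EcR has 3 promoters, and none was marked in the IDR list. The nearest summits lay 566 bp upstream of RD and RE (320) and 511 bp upstream of RB, RC and RG (312), just outside the window. The distal promoter, RA, had its nearest summit 9748 bp downstream. In single replicates the edge was crossed: replicate 1 placed a summit 477 bp upstream of RB, RC and RG, and replicate 3 placed one 379 bp downstream of RD and RE.

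For usp (FBgn0003964, chrX:2038798-2042311, minus strand), which encodes the RXR-like partner of EcR, the only summit lay 288 bp upstream of the RA start and 711 bp downstream of the RB start. It was weak, with a signal value of 121 at rank 6155. Entries within 100 bp had values of 55.1, 54.2 and 20.7 in replicates 1, 2 and 3, at ranks 6740, 4122 and 11318, so only replicate 2 held it among its best-ranked peaks. The same summit lay within 500 bp of the start of CG4313, and the 2 start sites cannot be told apart by it. It was lost when any replicate was left out.

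The early gene Eip74EF (FBgn0000567, chr3L:17558672-17619325, minus strand) encodes ETS-domain factors. It had 14 summits, and 13, 13 and 13 in the replicates. Its pair of strongest summits, the strongest of all 10 genes, lay in the intron of the distal transcripts, 7742 and 7950 bp downstream of their start. The summit at 7950 bp had a signal value of 1013 (rank 57) and that at 7742 bp had 956 (rank 70). Replicate 2 placed summits within 1 bp of both, with 297 and 281 at ranks 72 and 97. The strongest summits of replicates 1 and 3, 547 at rank 24 and 193 at rank 156, lay between them, 94 and 118 bp from the summit at 7950 bp. Replicate 1 had a further summit 85 bp from that at 7742 bp, 225 at rank 564. The stretch was thus high in all 3 replicates, and matching within 100 bp assigns those of replicates 1 and 3 to different IDR summits although they lie close together. A further summit at 704 (rank 224) lay 1915 bp upstream of the RB promoter, with values of 308, 244 and 163. None of the 3 promoters was marked. The nearest summits lay 618 bp upstream of RB and 924 bp upstream of RD (the same peak, 170), and 2247 bp upstream of RA, RC and RE, where a peak of 155 sits at the starts of Vps60 and anchor. In replicate 3 alone, a summit lay 289 bp upstream of RA, RC and RE. The weakest IDR summit of the gene, at 118, had no entry within 100 bp in any replicate list.

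Eip75B (FBgn0000568, chr3L:17950953-18064696, minus strand), a heme-binding nuclear receptor that represses Hr3, had 15 summits, and 14, 16 and 21 in the replicates (17.0 ± 3.61, SD, n = 3). Of its 7 promoters the RC promoter was marked, by a summit 29 bp downstream of the start with a signal value of 614 (rank 336). The replicates placed it 1, 32 and 98 bp downstream, with 257, 187 and 164 at ranks 415, 362 and 256. This was the strongest marked promoter of the 10 genes and was kept when each replicate was left out. Of the summits of the gene it was exceeded by those 9359 bp (824, rank 136) and 5421 bp (801, rank 151) upstream of the same promoter, and was followed by one 12113 bp upstream (553, rank 443). The summit at 9359 bp had 360, 286 and 185 in the replicates, and that at 5421 bp had 411, 228 and 161. These 3 upstream summits held ranks from 88 to 731 in the replicates. The distal promoter, RF, had a summit 538 bp upstream (314), and replicate 2 placed it at 448 bp, inside the window. For RE, RB and RG the nearest IDR summits lay 1766 and 3621 bp upstream and 6205 bp downstream. The proximal promoters RA and RD had none closer than 7131 and 16756 bp, a peak of 450.

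Eip78C (FBgn0004865, chr3L:21226609-21266503, plus strand), a nuclear receptor related to Eip75B, had 8 summits, and 9, 7 and 7 in the replicates. Its strongest summit had a signal value of 443 (rank 721) and lay in an intron 13547 bp downstream of the RB promoter. It scored 159, 146 and 137 in the replicates, at ranks 1229, 654 and 428. No promoter was marked. A summit of 405 lay 2108 bp upstream of RD and RE and 2418 bp upstream of RA, and RB had a summit of 143 at 2109 bp upstream.

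Eip93F (FBgn0264490, chr3R:21949114-22014539, plus strand), the Pipsqueak-domain factor of the late prepupal response, was the only one of the 10 genes with a mark at each of its promoters. The proximal promoter, RA and RC, had the strongest summit of the gene, 63 bp upstream of the start, with a signal value of 333 (rank 1314). In the replicates it had 173, 104 and 73.9, at ranks 1018, 1410 and 1570 and 73, 37 and 37 bp upstream. The distal promoter, RB, had a weak summit 217 bp upstream, with 144 at rank 4954. For RB, replicates 1 and 3 placed their nearest best-ranked summit 362 and 255 bp upstream, and replicate 2 placed its own 714 bp downstream. The proximal mark was kept when each replicate was left out, and the distal mark was lost each time. The gene had 7 summits, and 5, 4 and 7 in the replicates (5.33 ± 1.53, SD, n = 3).

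The early gene br (FBgn0283451, chrX:1575132-1664869, plus strand), which encodes the BTB zinc-finger factors that specify the pupal stage, had the fewest summits of the long genes described here. There were 2, and 2, 1 and 2 in the replicates. The stronger had a signal value of 305 (rank 1544) and lay in an intron 3427 bp upstream of the RS promoter and 3851 bp upstream of RM. It scored 162, 79.5 and 65.4, at ranks 1200, 2249 and 1993, and was found in every replicate. The weaker, at 117, lay within 500 bp of the start of Mur2B, a gene nested in br, and no replicate held it among its best-ranked peaks. None of the 7 promoters was marked, and the promoter of 9 transcripts from RA to RR had its nearest summit 5763 bp away. Replicates 1 and 3 had a best-ranked summit 922 and 1041 bp upstream of RH, with 60.5 and 33.7, that the IDR list does not hold. The strongest pooled peak near br that fell just below the list, at chrX position 1607900, had a signal value of 114.8, against 116.5 for the last peak in the list.

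The prepupal regulators followed. Hr3 (FBgn0000448, chr2R:10203995-10237348, minus strand), a ROR-like nuclear receptor that induces ftz-f1, had 10 summits, and 12, 9 and 9 in the replicates (10 ± 1.73, SD, n = 3). Its strongest, 474 at rank 618, lay in an intron 14296 bp downstream of the RA, RF and RH promoter with a neighbour of 288 at 202 bp. Replicate 1 placed summits at both, with 254 and 145 at ranks 427 and 1498. Replicates 2 and 3 had 1 summit each between them, 127 at rank 909 and 98.1 at rank 907, which lay 114 and 137 bp from the strongest and within 100 bp of the neighbour only. No promoter was marked. The nearest summits lay 577 bp upstream of RD (167), where the start of Hdc and of lncRNA:CR45265 is, 2022 bp downstream of RA, RF and RH (330), and 3318 bp upstream of RC and RI. A summit of 446 in the flank beyond the 3′ end lay at the start of CG34221.

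The gene ftz-f1 (FBgn0001078, chr3L:18750607-18801309, minus strand), the competence factor, had 9 summits, and 6, 8 and 10 in the replicates (8 ± 2, SD, n = 3). Its strongest, 341 at rank 1262, lay in an intron 10256 bp downstream of the RB start. It had 197, 86.5 and 65.6 in the replicates, at ranks 807, 1957 and 1982. No promoter was marked in the IDR list. Replicate 2 alone had a summit at the RB start, 55 bp downstream, with 48.2 at rank 4860. The promoters RC and RD, and RA, had their nearest IDR summit 2961 and 3749 bp upstream, a peak of 135.

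Hr4 (FBgn0264562, chrX:1941940-2007956, plus strand), a nuclear receptor that represses early genes in prepupae, had the most IDR summits of the 10 genes, 17, and 16, 13 and 14 in the replicates (14.3 ± 1.53, SD, n = 3). Of the long genes, 7 had more IDR summits. Inside the span alone Hr4 had 12, against 13 for Eip74EF and 13 for Eip75B. In replicates 2 and 3 Eip75B had more than Hr4, 16 and 21. Its strongest summits lay in an intron 9976 and 5833 bp downstream of the distal promoter. The former had a signal value of 805 (rank 150), with 365, 229 and 209 at ranks 146, 201 and 123. The latter had 708 (rank 216), with 335, 216 and 163 at ranks 191, 248 and 269. Both were high in every replicate. Neither promoter was marked, with the nearest summits 1788 bp upstream of the distal and 3421 bp upstream of the proximal one, RE and RF. The peak at 1788 bp, 243, sits at the starts of CG3857 and CG3587, and 4 of the 5 summits in the flanks sit beyond the 3′ end, at the starts of PIG-K and east. One of the PIG-K summits also lies within 500 bp of lncRNA:CR45478, mir-2496 and an element annotated as FBtr0304439_df_nrg, and the other of lncRNA:CR45478.

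**Figure D3:**
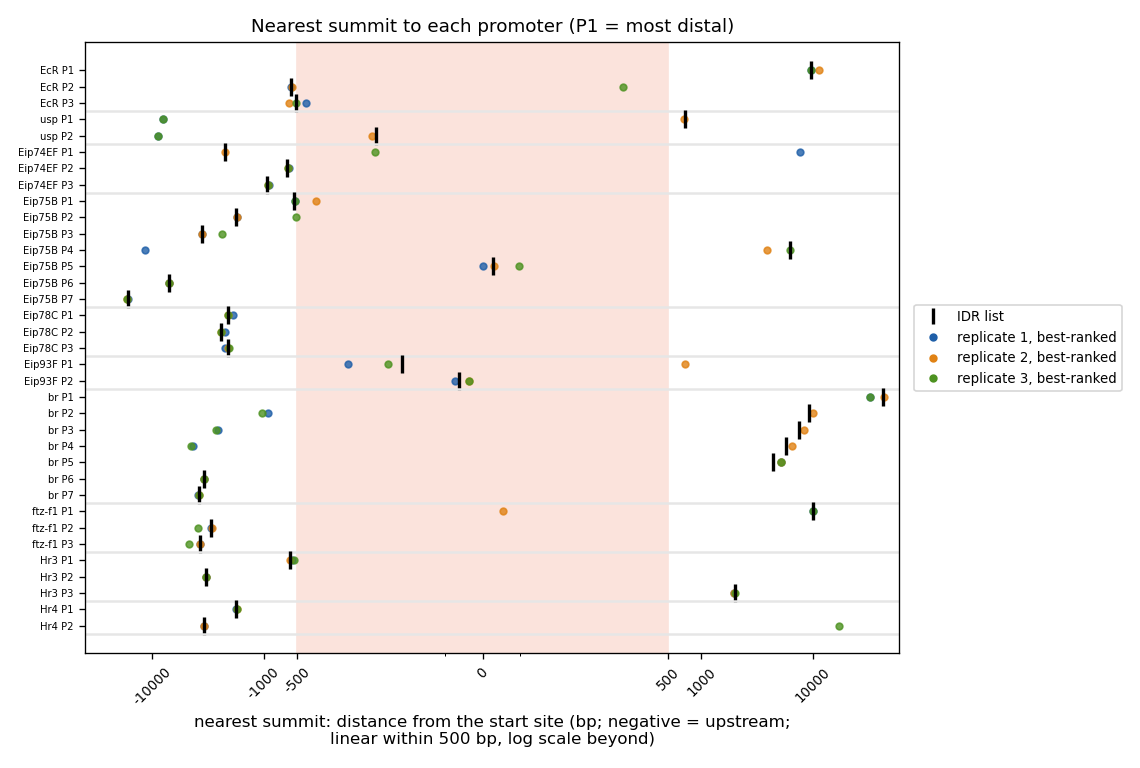
Distance in bp from each of the 35 promoters to its nearest summit, negative upstream, for the IDR list (black bars) and the best-ranked peaks of the 3 replicates (points). The shaded band is the 500 bp window, linear inside and log scale beyond. Only promoter P5 (RC) of Eip75B and P2 (RA and RC) of Eip93F have the IDR summit and all 3 replicates in the band.

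Across the genes, 3 of 10 had an IDR summit within 500 bp of a start site, against 12.5% of all protein-coding genes and 27.3% of genes over 20 kb. The replicates gave 3, 4 and 4 (3.67 ± 0.577, SD, n = 3). By promoter, 4 of 35 were marked, against 11.4% of all promoters and 16.0% of those of genes over 20 kb, with 4, 5 and 5 in the replicates (4.67 ± 0.577, SD, n = 3). These counts were close to the background. Within 1000 bp, 11 of 35 promoters in 6 genes had a summit, against 15.7% of all promoters and 23.9% in genes over 20 kb. The share of genes is not given at this distance. Some peaks count more than once: the only summit of usp for both its promoters, and the same Eip74EF peak for RB and RD. The peak counted for RD of Hr3 lies at the start of Hdc. The wider window took in 8 summits that lie 500 to 1000 bp from a start site of their own gene, 7 of them upstream. Without any 1 of the replicates 2 promoters remained, RC of Eip75B and RA and RC of Eip93F.

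By position, 73 of the 92 summits lay in introns (79.3%), against 48.7% of all IDR summits and 72.2% of the 3112 in and around genes over 20 kb. Within 500 bp of a start site of any gene lay 13 (14.1%), against 29.9% of all and 20.8% around long genes, and 9 of these 13 were at another gene only. The remainder were 4 intergenic summits, 1 in a 5′ UTR (Eip93F) and 1 in another exon (EcR). The median signal value of the 92 was 242, against 195 for all IDR summits and 193 around long genes, and 251 against 191 for introns alone. Among the 1000 strongest IDR peaks were 15 of the 92 (16.3%, against 15.4% of all). These 15 came from 5 genes, 6 from Eip75B, 3 from Eip74EF and 2 each from Eip78C, Hr3 and Hr4. Median GC content around the summits was 35.6%, against 34.3%.

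A best-ranked summit within 100 bp was found for 49 of the 92 summits in all 3 replicates (53.3%), against 55.2% of all IDR summits, and for 3 in none. Per replicate, 82.6, 76.1 and 73.9% were found (77.5% ± 4.53, SD, n = 3), against 83.1, 78.8 and 73.7% of all (78.6% ± 4.72). The members were thus found about as often as the list as a whole. By gene, Eip75B had 11 summits found in all 3 replicates, Hr4 had 9, and Eip74EF and Hr3 had 8 each. Eip78C had 5, EcR 3, ftz-f1 and Eip93F 2 each, br 1 and usp 0. The genes were also ordered by their strongest summit in each replicate, which was not always the same peak. Eip74EF, Eip75B and Hr4 held ranks between 24 and 201 in every replicate and overlapped each other. Hr3 and Eip78C followed between 427 and 904, overlapping each other but not the first group. For Hr3 the ranks in replicates 2 and 3 were those of the flank peak at the start of CG34221. For Eip78C the rank in replicate 1 was that of a summit upstream of the gene. EcR, ftz-f1, Eip93F and br came next, each overlapping its neighbours in this order, from 782 to 2249. They were not separate from the second group. EcR, at 1157, 782 and 885, overlapped both Hr3 and Eip78C, and came before Hr3 in replicate 3 (885 against 904). The gene ftz-f1, at 807 in replicate 1, overlapped Hr3. The gene usp stood apart at ranks from 4122 to 10526, the last from a peak in its flank.

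**Figure D4:**
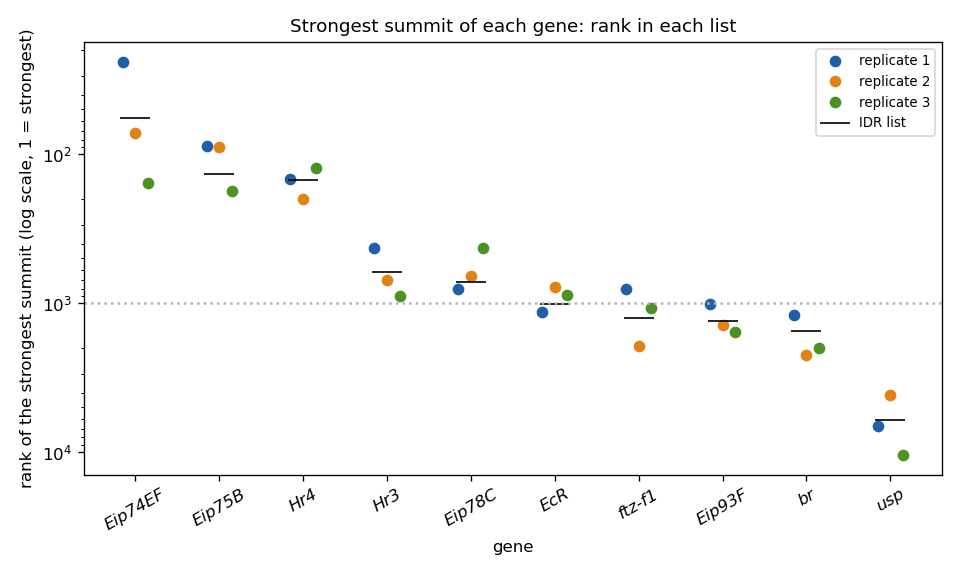
Rank of the strongest summit of each gene in the IDR list (black bars) and in each replicate (points), on a log scale with the strongest at the top. The strongest summit was taken in each list separately and can be a different peak. The dotted line is rank 1000. Eip74EF, Eip75B and Hr4 stay between ranks 24 and 201, the 4 genes from EcR to br lie between 782 and 2249, and usp lies apart from 4122 on. EcR overlaps Hr3 and Eip78C, and ftz-f1 overlaps Hr3.

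The rest of the hormone pathway was read against the same background of 38.8% of protein-coding genes. Of 58 other ecdysone genes, 28 had an IDR summit in the span or within 5 kb (48.3%), and 31, 32 and 32 in the replicates (31.7 ± 0.577, SD, n = 3). The 58 include genes over 20 kb, for which the background is 68.9%, and shorter ones, for which it is 36.5%. The share of 48.3% is not set against a background matched for length. Both genes of hormone transport had summits, E23, an ABC transporter that limits the hormone response, with 1039 at rank 53, and Oatp74D, the ecdysone importer, with 355. E23 stood at ranks 53, 41 and 97 in the replicates. Of 14 genes for synthesis of the hormone and its control, 2 had a summit, shd (327), which makes the active hormone, and mld (155), and Cyp18a1 and dib were among those without. All summits of shd lay in its flanks, outside the gene, although it had a summit within 500 bp of its own start.

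Among 10 receptor cofactors 4 had summits, the Mediator subunit gene skd (674), the corepressor gene Smr (637), the coactivator gene tai (484) and Bx42 (185), while alien and ash2 had none. Of 23 other inducible genes 14 had one, led by ken (766), ImpL2 (755), ImpE3 (709) and Ldh (707), and Cth and Edg78E had none. Of 9 cell death genes 6 had one, led by hid (672), Atg5 (646), Drice (496) and Atg1 (414), and Dark and Dronc had none. Of 14 other nuclear receptor genes, the set most like the members in kind, 8 had a summit (57.1%) with a median of 1 per gene, against a median of 9 for the members. Their median span was 8.48 kb, against 63.0 kb. Led by Hnf4 (703), Hr83 (450), Hr38 (226) and svp (218), they included dsf and Hr51 without a summit. All summits of Bx42, ImpE3, Ldh, hid, Drice and Hr83 lay in the flanks, outside the gene. Of these genes, only Ldh and hid had a summit within 500 bp of their own start. Whether the flank summits belong to neighbouring genes was not tested.

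The IDR list ended at a signal value of 116.5. Just inside lay the br summit at 116.9 and the Eip74EF summit at 118. The highest pooled entries below it had 116.02 at Eip74EF, 114.8 at br, and 114 at both Eip78C and Eip75B. At the edge of the flank, the farthest summit inside was one of Hr4 at 4090 bp (214). The nearest outside were those of Eip93F at 7530 bp (550), Hr3 at 7580 bp (301) and usp at 7980 bp (392).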

How the data were processed

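Peak lists of salr-GFP ChIP-seq from prepupae were read, 1 per replicate, 1 for the pooled replicates and 1 thresholded by IDR, on dm6. The authors deposited a score per peak, its signal value, with no stated scale, used here only for ranks and description. Per the deposited notes, lists came from alignments and a shared control. Aligner, caller, versions and read totals: not given in the sources used here, so depth is unknown. Replicate and pooled lists hold 30000 entries each, background included, and the IDR list holds the 6485 strongest pooled entries. Where a replicate is counted, its 6485 best-ranked peaks are meant, and a summit was found in it when 1 lay within 100 bp. The dm3 lists were not used.

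Summits (start plus offset, 1-based) were set against Ensembl release 115 (BDGP 6.54) and the Release 6 sequence with python 3.11.15, pandas 2.3.3 and scipy 1.17.1. Start sites within 300 bp were merged into 1 promoter, which was marked by an IDR summit within 500 bp. The counting was tested on simulated summits and recovered 200 of 200 genes. This check used the same start sites and merged promoters as the counting, so it does not test those. Members and lists were chosen with earlier results of these data known. Named were all 10 genes, in each list up to 4 genes with the strongest peak and up to 2 without one, first in the alphabet, and other genes with a start site at a member's summit. Of the list symbols, 7 were matched by a newer name. With 1 group there is no contrast and no test; SDs are over the 3 biological replicates, and backgrounds are shares of all genes. Intervals are Wilson 95%. Alternatives were stronger peaks, other windows, distances and merging, and the list without each replicate.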

Additional observations from a re-analysis of the deposited data

How the results depend on the processing

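With the 3242 strongest IDR peaks, 49 summits, 2 marked promoters and 0.679 summits per 10 kb were left. With the 1000 strongest peaks, 5 genes had a summit and 15 summits lay in or near them. At this cut 1 gene had one at a start site, 1 promoter was marked, and the density was 0.215. Of the 58 other ecdysone genes, 16 had a summit. Both cuts shrink the whole list, and the 15 summits are 16.3% of the members' summits, against 15.4% of all IDR summits. Shares over all genes and promoters are not given at these cuts. A window of 1000 bp gave 6 genes with a summit at a start site and 11 marked promoters. Without 1 replicate, 57 to 59 summits, 2 promoters (2 each time), a density of 0.778 to 0.811 and 62.0 to 64.1% of summits found in both others were left, because that list demands support in both. Of all IDR peaks, 62.4 to 67.2% were left, and the density of genes over 20 kb was 0.308 to 0.338. Counting summits within 300 bp once, added after the data were seen, gave 1.13 per 10 kb and left 5634 of all 6485 IDR summits. The share found in all replicates was 34.8% at 50 bp, 66.3% at 200 bp, 83.7% over all deposited peaks and 67.4% where a peak covers the summit. The cause of these shifts was not tested beyond the settings' own construction. All 10 genes had a summit in the span alone, 3 promoters were marked at 250 bp, and 4 were marked with start sites merged within 100 or 1000 bp. Shares over all genes, promoters or IDR peaks are not given for these distances, windows and merging. Over 50 bp around the summits GAGAG was found in 13.0% of the members' windows and 11.6% of all IDR windows, and AGGTCA in 3.26% and 1.91%. The depth is unknown and no untagged sample was analysed here, and what this does to weak or strong peaks was not tested.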
